A study of Homo sapiens with 4 samples.

Results

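The genes described here encode the machinery that shortens the poly(A) tail, removes the cap, and degrades the body of human mRNAs. They are 44 of the 58243 genes in the deposited tables, chosen by name for their role, and each was matched by symbol to 1 Ensembl gene. mRNA was measured by RNA-seq in 293T cells, a human embryonic kidney cell line, that had received a negative control RNA or the mimic of 1 miRNA, which was miR-1, miR-122, or miR-124. Mimics are short synthetic RNA duplexes that deliver a mature miRNA to the cell. The sample labels give 48 h of transfection, whereas the methods of the study give a shorter time. There was 1 library for each of the 4 conditions, so every value below compares libraries, and a difference due to a mimic cannot be told apart from a difference between 2 cultures or 2 library preparations. In bulk RNA, fewer cells that express a gene and less of its RNA per cell also cannot be told apart.

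A miRNA guides an Argonaute protein to mRNAs that pair with its seed, bases 2 to 8. TNRC6 proteins bound to Argonaute then recruit the PAN2-PAN3 and CCR4-NOT deadenylase complexes, deadenylated mRNAs are decapped by DCP2 with its activators, and XRN1 degrades them from the 5′ end. The exosome degrades RNA from the 3′ end. Most genes described here thus encode proteins through which miRNAs act, and the levels of their own mRNAs are compared here between the mimic libraries and the control RNA library.

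The libraries had been scaled to 5887055 reads (miR-122) up to 9452232 reads (miR-1), numbers that were recovered from the values together with the reads of each gene. The deposited FPKM is based on the genomic span of a gene with its introns. Levels are therefore given as exon RPKM, the recovered reads per kilobase of merged exons after all libraries are scaled to the same number of reads. Genes can be compared on it only roughly, since the merged exons may not be the length that was counted. Ratios were formed from the FPKM of a gene in a mimic library and in the control RNA library, where the length cancels. The 95% intervals in parentheses are exact Clopper-Pearson intervals from the recovered reads and cover counting error only. A gene was called lower when its ratio was at most 0.8 with the whole interval below 1. It was called higher when the inverse of its ratio was at most 0.8 with the whole interval above 1. All 44 genes passed the minimum of 0.004 FPKM and of a mean of 50 reads. Of the 293T markers, VIM and NEFL were abundant and LHX1, NEFM, and PAX2 were detected in every library. Of the 3 blood markers at most 2 reads were counted in any library. Summed reads per library were 462 to 652 for fibroblast markers and 75 to 179 for muscle markers. They were 85 to 107 for neuron markers and 2 to 10 for liver markers. The summed FPKM of 6 interferon-response genes was between 1.47 and 1.67 in the 4 libraries. Single genes in this sum moved in opposite directions. IFIT1 was at 0.650 FPKM with the control RNA and 0.366 with miR-124, and ISG15 at 0.608 and 0.958.

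All 44 genes were expressed in the control RNA library, at levels from 2.26 for CNOT7 to 127 for LSM4, with a median of 13.1. LSM4 and LSM7 (79.5), both small subunits of the LSM ring, had the highest levels. PABPC1, the main cytoplasmic poly(A)-binding protein, followed at 44.2 and XRN2, the nuclear 5′-to-3′ exonuclease, at 42.6. The catalytic and scaffold subunits of the deadenylases were lower, with 13.8 for CNOT1, the scaffold of CCR4-NOT, 5.33 for PAN2, and 3.67 for PARN, a further poly(A)-specific ribonuclease.
In several paralog pairs 1 gene had a higher level than the other, in part through the length of the merged exons. CNOT6, a deadenylase of the CCR4 family, was at 11.8 and CNOT6L at 2.87. CNOT8, a deadenylase of the CAF1 family, was at 12.8 and CNOT7 at 2.26, and XRN2 was at 42.6 against 4.20 for the cytoplasmic XRN1. DCP1A was at 7.17 against 3.14 for DCP1B, TOB1 at 26.8 against 13.5 for TOB2, and BTG2 at 24.1 against 8.49 for BTG1. Exons were merged over all annotated transcripts, so that genes with many unused exons appear lower than they are. CNOT8 and CNOT7 had 333 and 164 reads in the control RNA library, over 3929 and 10941 bases of merged exons. TOB1 and TOB2 had 447 and 388 reads there, over 2521 and 4341 bases.

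With the miR-1 mimic, 9 of the 44 genes (20.5%) were called lower, beside 16.1% of all 12574 genes tested, and 1 (2.27%) was called higher, beside 5.85% of all genes. The median log2 ratio of the 44 genes was -0.09, against -0.05 for all genes tested. The genes called lower were the deadenylase subunits CNOT6, CNOT6L, PAN3, and PARN, the adaptor TOB1, the decapping factors DCP1A, DCP1B, and EDC3, and UPF2 of nonsense-mediated decay. LSM4 was the gene called higher.
With the miR-122 mimic, 7 genes (15.9%) were called lower, beside 9.57% of all 12575 genes tested, and 1 (2.27%) higher, beside 5.61%. The median log2 ratio was -0.02 for the 44 genes and -0.02 for all genes. Those called lower were CNOT6, PAN3, TOB2, DCP1A, XRN1, EXOSC3, and UPF2, and LSM2 was called higher.
With the miR-124 mimic, 7 genes (15.9%) were called lower, beside 13.4% of all 12574 genes tested, and 1 (2.27%) higher, beside 8.4%. The median log2 ratio was -0.11, against -0.05 for all genes. CNOT6, CNOT6L, CNOT7, PAN3, DCP1A, XRN1, and XRN2 were called lower and CNOT3 was called higher. The shares of genes called lower were close to those of all genes with miR-1 and miR-124, and no test of the difference is possible with 1 library for each condition.

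**Figure D1:**
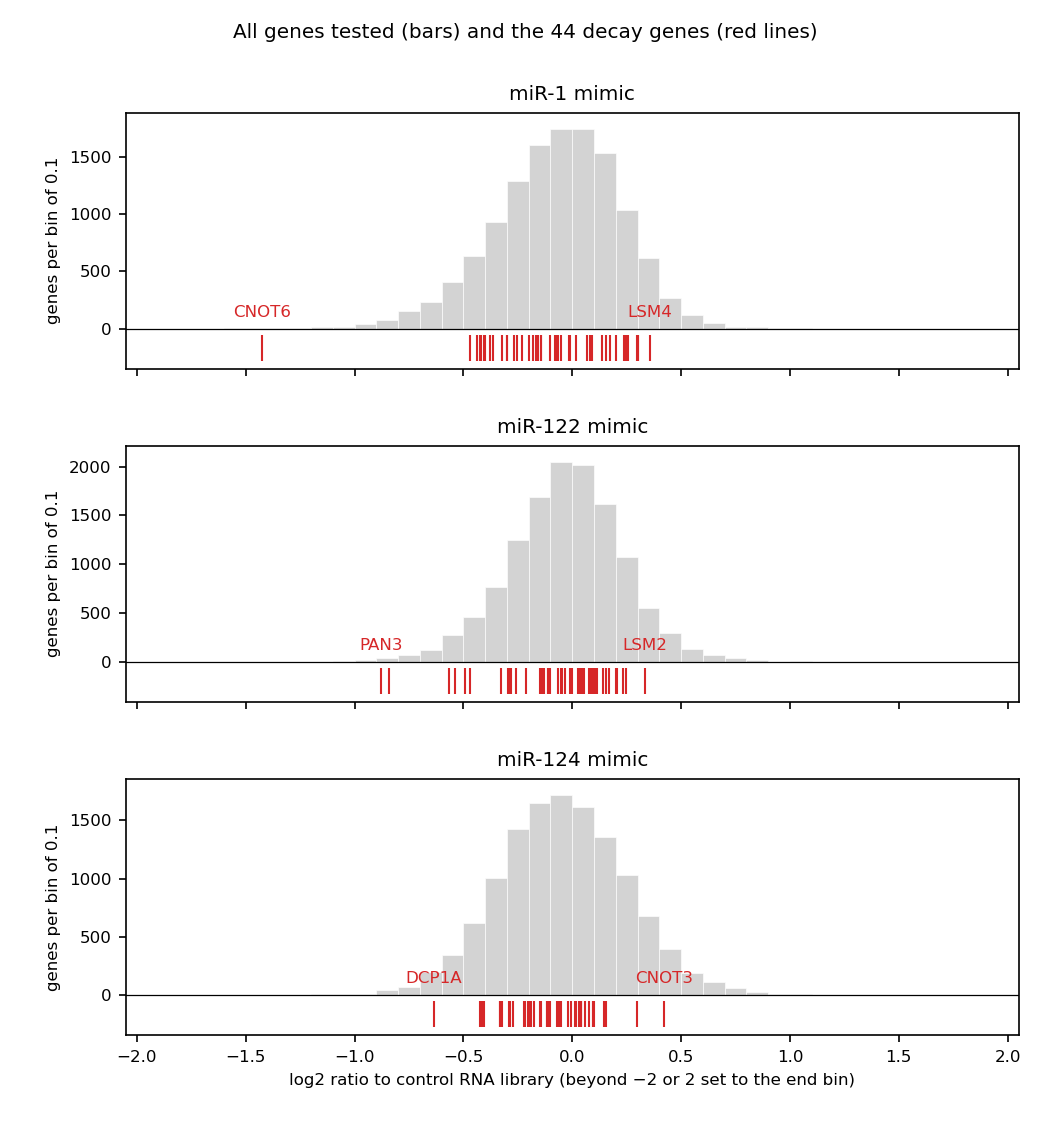
Number of genes per bin of 0.1 in the log2 ratio to the control RNA library for all genes tested (bars), with the 44 decay genes as red lines and the lowest and highest of them named. The 44 genes spread over the range of the other genes, and CNOT6 with miR-1 (-1.43) is far in the lower tail.

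CNOT6 with miR-1 had the lowest ratio of the 44 genes in any library. Its levels were 11.8 with the control RNA, 4.39 with miR-1, 7.99 with miR-122, and 9.44 in the miR-124 library, from 514, 273, 309, and 401 reads. CNOT6 was thus lower in each mimic library than in the control RNA library, and lowest with miR-1. The ratio with miR-1 was 0.372 (0.320 to 0.432), and 9 of 12574 genes had a lower one. Relative to the other 2 mimic libraries, whose mean FPKM served as the reference, the ratio was 0.504. With a pseudocount of 1 FPKM, which weighs heavily on a gene with a long span and thus a low FPKM, the ratio with miR-1 was 0.6985, still called lower. The ratios with miR-122 (0.676, 0.586 to 0.780) and miR-124 (0.799, 0.6997 to 0.913) were also called lower, but against the other mimics they were 1.15 and 1.52.
The paralog CNOT6L had levels of 2.87, 2.15, 2.34, and 2.28 in the control RNA, miR-1, miR-122, and miR-124 libraries. It was called lower with miR-1 (0.748, 0.607 to 0.923) and miR-124 (0.794, 0.631 to 0.998), with intervals that end near 1 since it had 129 to 190 reads. For CNOT7, with 119 to 204 reads, the ratio of 0.750 with miR-124 was called (0.587 to 0.955), and those of 0.872 with miR-1 and 0.816 with miR-122 were not. CNOT8, with more reads than CNOT7, was not called, with ratios of 0.905, 0.993, and 0.871 in the same order of the mimics. The 3 comparisons share the control RNA library.

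CNOT6 (chr5:180494379-180578358, plus strand, GRCh38) has no 8mer or 7mer match of the miR-1 seed in its longest 3′ UTR in GENCODE release 44, of 4158 bases, nor of the other seeds. A search chosen after these values were seen looked for the longest unbroken pairing with miR-1 and with miR-122 along its main transcript. For miR-1 it was a run of 10 bases in the 3′ UTR, which pairs with bases 5 to 14 of the miRNA and not with the whole seed. It is shown because CNOT6 had the lowest ratio, at chr5:180574871-180574892 on the plus strand, with the run in capitals.
CNOT6: acatggTTCTTTACATataaat
A run of 10 or more bases was found in 5.64% of 11164 genes.

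Against the control RNA library none of the 7 scaffold and regulatory CCR4-NOT genes was called lower. CNOT1, CNOT2, CNOT4, CNOT9, CNOT10, and CNOT11 were not called there in either direction, with ratios from 0.776 (CNOT4 with miR-1, 0.596 to 1.01) to 1.23 (CNOT10 with miR-1). CNOT1 was at 0.813 (0.746 to 0.886), 0.862 (0.783 to 0.948), and 0.868 (0.790 to 0.952) with miR-1, miR-122, and miR-124. Intervals of CNOT2 with miR-1 (0.739 to 0.932) and miR-124 (0.758 to 0.977) were also below 1. Those of CNOT9 (1.01 to 1.26) and CNOT10 (1.05 to 1.45) with miR-1 were above 1. CNOT1 has miR-1 matches in its 3′ UTR (7 bases) and its coding region. CNOT3, a subunit of the NOT module, had levels of 15.6 with the control RNA, 15.8 with miR-1, 17.6 with miR-122, and 20.9 in the miR-124 library. It was highest with miR-124, where the ratio was 1.34 (1.21 to 1.48), or 1.251 when set against the other 2 mimic libraries. Of its exon bases 7.64% overlap LENG1, and whether the strand of the reads was used in counting is not stated.

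PAN3, which binds poly(A)-binding protein and TNRC6 and brings the nuclease PAN2 to the mRNA, was lowest with miR-122. Its levels were 6.58 with the control RNA, 4.98 with miR-1, 3.58 with miR-122, and 4.97 in the miR-124 library, from 277, 299, 134, and 204 reads. The ratio with miR-122 was 0.544 (0.440 to 0.671), and 32 of 12575 genes had a lower one. Relative to the other 2 mimic libraries it was 0.720. The ratios with miR-1 (0.756, 0.640 to 0.894) and miR-124 (0.755, 0.627 to 0.907) were called lower, and to the other mimics they were 1.16 and 1.16. The catalytic partner PAN2 was called in no comparison, with ratios of 0.905, 0.902, and 0.821.
PARN, by contrast, was low in the miR-1 library alone among the 4. Its levels were 3.67, 2.83, 3.81, and 3.54 in the control RNA, miR-1, miR-122, and miR-124 libraries. The ratio with miR-1 was 0.770 (0.664 to 0.894), and it was 0.770 to the other mimics as well, while the ratios with miR-122 and miR-124 were 1.04 and 0.965. After the adjustment described further on, PARN with miR-1 was at 0.8595 and was not called.

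Both genes hold seed matches that the longest-3′ UTR search did not count or counted for another mimic. PAN3 (chr13:28138506-28295335, plus strand) has a miR-122 8mer in its coding region at chr13:28256364-28256387, found in the search chosen after the values were seen, and a miR-124 7mer in its 3′ UTR at chr13:28293581-28293603. PARN (chr16:14435700-14632728, minus strand) has a miR-1 8mer in the 3′ UTR of its main transcript at chr16:14436347-14436370, which the longest annotated 3′ UTR does not contain, and a miR-122 8mer in its coding region at chr16:14628195-14628218. The sites are shown 5′ to 3′ on the mRNA strand, with the seed match in capitals.
PAN3, miR-122, coding: gaagaagaagtcACACTCCAaatc
PAN3, miR-124, 3′ UTR: taacgatctgctGTGCCTTtgca
PARN, miR-1, 3′ UTR: caaaaagagctgACATTCCAgctg
PARN, miR-122, coding: caaatggttttgACACTCCAgaag
The PAN3 coding site pairs with bases 1 to 11 of miR-122, and a run of 11 or more bases was found in 1.16% of 11164 genes. Coding 8mers of miR-122 were found in 2 of the 44 genes (4.55%) and in 2.75% of all genes. The same kind of site went with a ratio of 0.544 in PAN3 and of 1.04 in PARN.

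Of the adaptors that tether the CAF1 deadenylases to mRNAs, TOB1 was called lower with miR-1 and TOB2 with miR-122. The TOB1 levels were 26.8 with the control RNA, 21.4 with miR-1, 25.9 with miR-122, and 25.5 in the miR-124 library, with a ratio of 0.7996 in the miR-1 library (0.703 to 0.910) and of 0.833 to the other mimics. TOB1 was thus low in 1 of the 4 libraries. The TOB2 levels were 13.5 with the control RNA, 12.01 with miR-1, 10.8 with miR-122, and 12.9 in the miR-124 library. With miR-122 its ratio was 0.798 (0.681 to 0.933), and 0.864 to the other mimics. TOB1 and TOB2 lie at the border of 0.8. BTG1 and BTG2 were called in no comparison, with ratios from 0.827 (BTG2 with miR-124) to 1.11 (BTG1 with miR-122).
Of the 7 genes called lower with miR-122, TOB2 alone has a match of bases 2 to 8 of miR-122 in its longest 3′ UTR. It has 2 such matches, at chr22:41435934-41435956 and chr22:41435289-41435311 on the minus strand.
TOB2, first site: ccttcctccttcACACTCCtagt
TOB2, second site: gcttagcccaagACACTCCcaga

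Among the decapping genes DCP1A was lower in every mimic library than in the control RNA library, while DCP2, the enzyme itself, was called in none. DCP1A and DCP1B are cofactors of DCP2. The DCP1A levels were 7.17 with the control RNA, 5.41 with miR-1, 4.01 with miR-122, and 4.61 in the miR-124 library, from 290, 312, 144, and 182 reads. The ratios were 0.754 (0.641 to 0.888), 0.559 (0.454 to 0.685), and 0.643 (0.531 to 0.777), and with miR-122 47 of 12575 genes had a lower one. Relative to the other 2 mimic libraries the ratio was 1.255 with miR-1, 0.7999 with miR-122, and 0.980 in the miR-124 library, so DCP1A was low with miR-122 in both comparisons and with the other mimics only against the control RNA library. DCP1A (chr3:53283429-53347586, minus strand) has no match of bases 2 to 8 of the 3 mimics in its longest 3′ UTR, and 1 match of bases 2 to 7 of miR-124 that is followed by an A.
DCP1B, with 91 to 101 reads, was called lower with miR-1 (0.737, 0.552 to 0.985) and was 1.07 in both other mimic libraries. EDC3, which binds DCP2 and enhances decapping, had levels of 17.3 with the control RNA, 12.5 with miR-1, 16.9 with miR-122, and 17.7 in the miR-124 library. It was low in the miR-1 library and near the control in the others. The ratio was 0.722 (0.644 to 0.811) with miR-1 and 0.720 to the other mimics, against 0.978 and 1.03 with miR-122 and miR-124. EDC3 has no miR-1 match of 7 or 8 bases in its longest 3′ UTR, and 13.8% of its exon bases overlap CLK3.
The other decapping genes, EDC4, the helicase DDX6, which binds CNOT1, and PATL1, which links decapping to the LSM ring, were not called. Their ratios lay between 0.824 (EDC4 with miR-122) and 1.10 (DDX6 with miR-1).

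DCP2 and DDX6 hold the 8mer matches of miR-1 and miR-124 found in the longest 3′ UTRs of the 44 genes, and EXOSC2, a cap subunit of the exosome, holds that of miR-122. Their sites are shown because an 8mer is the longest seed match, and none of the 3 genes was called. DCP2 has 2 sites, at chr5:113018349-113018372 and chr5:113021815-113021838 on the plus strand. The DDX6 site is at chr11:118751639-118751662 on the minus strand and the EXOSC2 site at chr9:130704481-130704504 on the plus strand.
DCP2, miR-1, first site: tcaccaataaaaACATTCCAttta
DCP2, miR-1, second site: cagtccttgattACATTCCAtttt
DDX6, miR-124: tatttgtgcgaaGTGCCTTAtgct
EXOSC2, miR-122: aaatcgcgtaccACACTCCAgcct
DCP2 had levels of 4.41 with the control RNA and 4.21 with miR-1, a ratio of 0.954 (0.826 to 1.10). DDX6 had levels of 5.40 and 4.74 with the control RNA and miR-124, a ratio of 0.877 (0.758 to 1.01). For EXOSC2 the levels were 17.9 and 18.9 with the control RNA and miR-122, a ratio of 1.06 (0.965 to 1.15). The interval of DCP2 allows a loss to a ratio of 0.826, so a smaller loss was not detectable at this depth.

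Matches of bases 2 to 8 of a miRNA, alone (7 bases) or followed by an A (8 bases), were counted in the longest 3′ UTRs. Matches of bases 2 to 7 followed by an A, a further type of site, were not counted here. Among the genes called lower with the mimic concerned they were found in TOB2 and XRN1 for miR-122 and in CNOT7 and DCP1A for miR-124. They were also in genes not called lower with that mimic. These were PARN, DCP2, EDC3, and DIS3 for miR-122, TOB2, EXOSC2, and DIS3 for miR-124, and DCP2, LSM3, and PABPC1 for miR-1. Their share over all genes is not given, so no link with the calls is read from them. For miR-1 (seed match ACATTCC) the counted matches, those of bases 2 to 8, were found in 2 genes, CNOT1 and DCP2. This is 4.55% of the 44 against 14.8% of 11165 genes. For miR-122 (ACACTCC) they were in 3 genes, TOB2, DDX6, and EXOSC2, 6.82% against 9.83%. For miR-124 (GTGCCTT) they were in 8 genes, CNOT2, CNOT11, PAN3, BTG2, DDX6, LSM5, XRN1, and DIS3, 18.2% against 18.4%. A match is a description of these letters in the annotated sequence, and the annotated 3′ UTR may not be the one that 293T cells use.
None of the 9 genes called lower with miR-1 had a miR-1 match by this count. For miR-122, 1 of 7 had one, and for miR-124 2 of 7, PAN3 and XRN1. In the 3′ UTR of the main transcript, 1 of the 9, PARN, had a miR-1 match. PARN also has a miR-1 match of 7 bases in its coding region, and coding matches of miR-1 were in 13.6% of the 44 and 10.2% of all genes. Across all genes those with a match in the longest 3′ UTR had a median log2 ratio of -0.21 with miR-1, against -0.03 for those without. The medians were -0.12 against -0.01 with miR-122 and -0.13 against -0.04 with miR-124.

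Of the 7 LSM genes none was called lower, 1 was called higher with miR-1, beside 5.85% of all genes, and 1 with miR-122, beside 5.61%. Their proteins form the ring that binds the shortened 3′ end and promotes decapping, and LSM2 to LSM7 are also part of the nuclear ring that binds U6 RNA. Of the 7 genes 6 had a ratio above 1 with miR-1, from 1.11 for LSM2 to 1.28 for LSM4, and LSM6 was at 0.965, while 57.0% of all genes were below 1. The median log2 ratio of the group was 0.24 with miR-1, 0.08 with miR-122, and 0.01 in the miR-124 library, against medians of all genes of -0.05, -0.02, and -0.05. LSM4 had levels of 127, 163, 150, and 157 in the control RNA, miR-1, miR-122, and miR-124 libraries, lowest with the control RNA. Its ratios were 1.28 (1.22 to 1.34) with miR-1, 1.17 (1.11 to 1.24) with miR-122, and 1.23 (1.17 to 1.30) in the miR-124 library, of which the first was large enough to be called, and it was 1.06 to the other mimics. After the adjustment LSM4 was at 1.19 with miR-1 and was not called. LSM2 had levels of 35.5, 39.5, 44.8, and 35.8, and was called higher with miR-122 at 1.26 (1.06 to 1.502). It was at 1.19 both after the adjustment and against the other mimics, and was called in neither.

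Both 5′-to-3′ exonuclease genes were called lower with miR-124, and XRN1 also with miR-122. XRN1 had levels of 4.20 with the control RNA, 3.58 with miR-1, 3.03 with miR-122, and 3.12 in the miR-124 library. The ratios called were those with miR-122 (0.723, 0.606 to 0.861) and miR-124 (0.745, 0.628 to 0.881), and against the other mimics they were 0.906 and 0.945, at which XRN1 was not called. XRN2 had levels of 42.6, 40.6, 35.6, and 33.8, and was called lower with miR-124 (0.793, 0.720 to 0.874) but not against the other mimics (0.887). None of these 3 calls was kept after the adjustment, where XRN1 was at 0.8355 with miR-122 and 0.932 with miR-124 and XRN2 at 0.920. In the search chosen after the values were seen, XRN1 and PAN3 each had a miR-124 match of 7 bases in the coding region. Coding matches of miR-124 were in 11.4% of the 44 genes and 11.7% of all genes. The XRN1 3′ UTR has a miR-124 match of 7 bases at chr3:142310063-142310085 on the minus strand. It is shown because it is, with that of PAN3, a 3′ UTR match in a gene called lower with miR-124.
XRN1, miR-124: tgtgtattagcaGTGCCTTcagt

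Of the 6 exosome genes 1 was called, EXOSC3, a cap subunit. It had levels of 8.24 with the control RNA, 7.38 with miR-1, 5.68 with miR-122, and 6.74 in the miR-124 library, lowest with miR-122 at a ratio of 0.689 (0.588 to 0.807) and of 0.804 to the other mimics. Of its exon bases 9.27% overlap other coding genes. EXOSC2, EXOSC4, EXOSC9, EXOSC10, and the catalytic subunit DIS3 had ratios from 0.871 (DIS3 with miR-124) to 1.23 (EXOSC9 with miR-1) and were not called. Of the EXOSC4 exon bases 56.7% overlap another annotated gene, so its reads are uncertain.
UPF2, which joins UPF1 in nonsense-mediated decay, had levels of 7.16, 5.34, 5.08, and 6.34 in the control RNA, miR-1, miR-122, and miR-124 libraries. It was called lower with miR-1 (0.746, 0.631 to 0.882) and miR-122 (0.710, 0.584 to 0.860), with 0.936 and 0.870 to the other mimics. UPF1, at 1251 to 1941 reads, was not called, with ratios of 0.884, 0.915, and 1.07.
The poly(A)-binding protein genes were not called and stood on either side of 1 with miR-1. PABPC1 had a ratio of 0.812 (0.772 to 0.855) and PABPC4 of 1.18 (1.10 to 1.28). Both intervals were narrow, since PABPC1 had 2299 to 3240 reads and PABPC4 1023 to 1797. PABPC1 has 13 named pseudogenes, to which 3 reads of the control RNA library were assigned, and how shared reads were treated is not stated.

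Of 51 further genes of mRNA decay, 50 passed the minimum of reads. With miR-1, 7 were called lower, among them ANGEL2, PDE12, ZFP36L1, ZFP36L2, SMG1, and SMG8, and 4 higher (EXOSC1, EXOSC5, EXOSC8, and MPHOSPH6), beside 16.1% and 5.85% of all genes. With miR-122, 6 were called lower (DIS3L, TENT4B, ZFP36L1, RC3H2, SMG1, and SMG8) and 0 higher, beside 9.57% and 5.61%. With miR-124, 7 were called lower (DIS3L, SKIC3, TUT7, RC3H2, SMG1, SMG8, and UPF3B) and 1 higher (EXOSC5), beside 13.4% and 8.4%. The median log2 ratios of the 50 genes were -0.10, -0.06, and -0.16, against -0.05, -0.02, and -0.05 for all genes.
SMG1, the kinase that phosphorylates UPF1, had ratios of 0.633 (0.583 to 0.687), 0.564 (0.511 to 0.622), and 0.638 (0.582 to 0.698) with miR-1, miR-122, and miR-124. Relative to the other 2 mimic libraries they were 1.05, 0.888, and 1.07, so SMG1 was highest in the control RNA library. Near-identical pseudogene copies of SMG1 exist, and how reads were split among them is not stated. PDE12, a deadenylase, was at 0.763 with miR-1 (0.647 to 0.900) and at 0.693 to the other mimics, and has 3 miR-1 matches of 7 or 8 bases in its longest 3′ UTR. EXOSC5 was at 1.57 with miR-1 (1.35 to 1.84) and at 1.30 with miR-124 (1.10 to 1.54).

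The plot of the ratios under both references separates the genes that were low against the control RNA only from those that were low against the other mimics as well. When the other 2 mimic libraries took the place of the control RNA, 5 of the 44 genes were called lower with miR-1 (CNOT4, CNOT6, PARN, DCP1B, and EDC3), beside 10.9% of all genes. With miR-122 they were 2 (PAN3 and DCP1A), beside 3.5%, and with miR-124 there were 0, beside 5.19%. CNOT3 and CNOT6 were called higher with miR-124, beside 7.17% of all genes, and DCP1A with miR-1, beside 4.68%. Against the control RNA library CNOT6 with miR-124 (0.799) and DCP1A with miR-1 (0.754) were lower. The reference of CNOT6 there includes the miR-1 library (0.372). That of DCP1A is made of the miR-122 (0.559) and miR-124 (0.643) libraries. A gene that is low in the reference libraries appears higher on this measure.

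**Figure D2:**
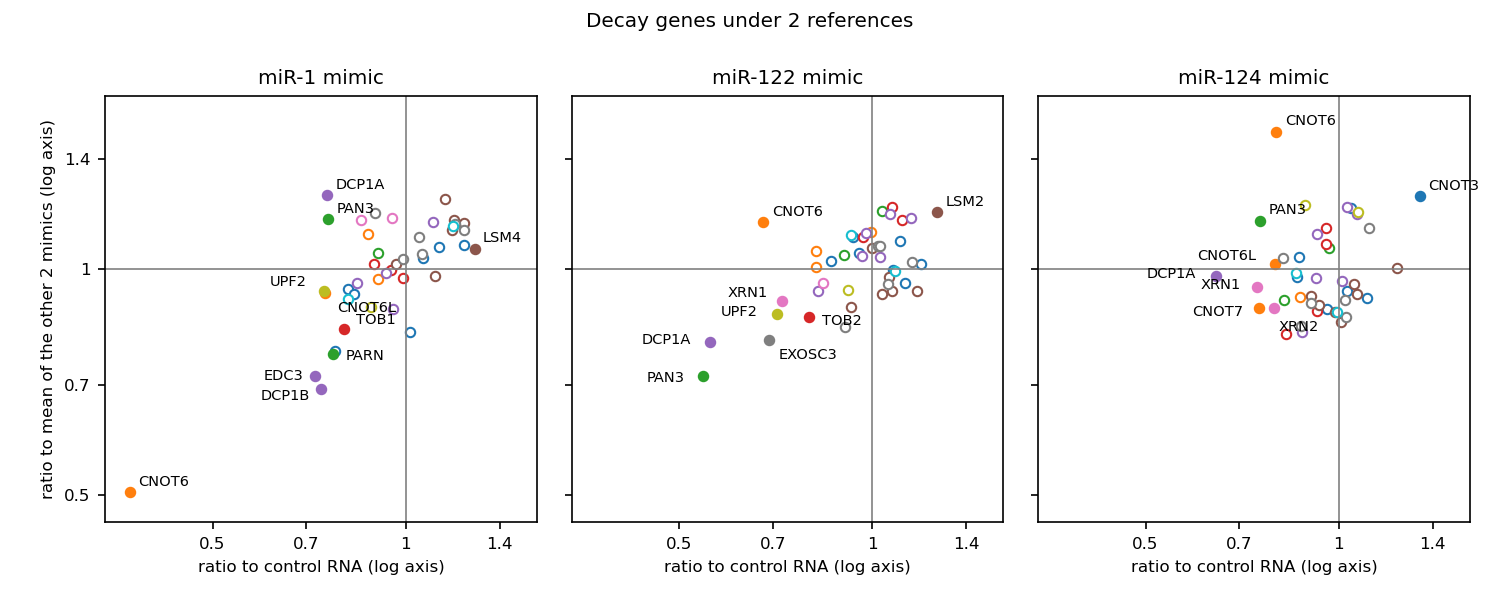
Ratio to the control RNA library (horizontal) against the ratio to the mean of the other 2 mimic libraries (vertical), both on log axes, for the 44 genes coloured as in the plot of ratios, with called genes filled and named. CNOT6 with miR-1 is low on both axes (0.372 and 0.504), and CNOT6, PAN3, and CNOT6L with miR-124 are below 1 on the horizontal axis and above 1 on the vertical axis.

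The ratios varied with 3′ UTR GC content. As a description across 11165 genes of the same libraries, Pearson's r of the log2 ratio with GC content was 0.612 with miR-124 and 0.241 with miR-1, and across 11166 genes it was 0.341 with miR-122. Across the 44 genes it was 0.437, 0.205, and 0.160 in the same order. The 7 genes called lower with miR-124 had a GC content between 29.8% and 40.5% with a median of 34.1%, against a median of 40.1% for the 36 genes that were not called, and their median 3′ UTR was 4158 bases long, against 1370 bases.
Ratios were also adjusted for the trends that all genes showed with the reads, the genomic span, and the length and GC content of the 3′ UTR. After this, 3 of the 44 genes were called lower with miR-1, 7 with miR-122, and 3 in the miR-124 library, beside 8.37%, 5.42%, and 3.81% of all genes, and 2, 5, and 1 of these had been called before it. The adjusted ratio of CNOT6 with miR-1 was 0.431, that of PAN3 with miR-122 was 0.618, and that of DCP1A with miR-122 was 0.615. EDC3 with miR-1 was at 0.754. These 4 ratios were called lower after the adjustment. No longer called with miR-1 were CNOT6L (0.918), PAN3 (0.894), PARN (0.8595), TOB1 (0.802), DCP1A (0.865), DCP1B (0.8385), and UPF2 (0.824), and no longer called with miR-122 were TOB2 (0.804) and XRN1 (0.8355). With miR-124 the adjusted ratios were 0.975 for CNOT6, 1.00 for CNOT6L, 0.901 for CNOT7, 0.926 for PAN3, 0.932 for XRN1, 0.920 for XRN2, and 0.744 for DCP1A, of which DCP1A was called. CNOT3 with miR-124 was at 1.22 and was not called. Called lower only in the adjusted values were EDC4 with miR-1 (0.778) and miR-122 (0.757), EXOSC4 with miR-122 (0.763) and miR-124 (0.792), and LSM7 with miR-124 (0.774). Before the adjustment these ratios were 0.839 and 0.824 for EDC4, 0.908 and 1.11 for EXOSC4, and 0.985 for LSM7. EXOSC4 with miR-124 was thus above the control RNA library as measured. Its longest 3′ UTR has 54 bases with 68.5% GC, and its exon overlap was given above. The intervals do not hold the error of the trend. Called higher only in the adjusted values were CNOT10 with miR-1 (1.265), beside 7.68% of all genes, and DCP2 with miR-122 (1.302), beside 5.21%.

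**Figure D3:**
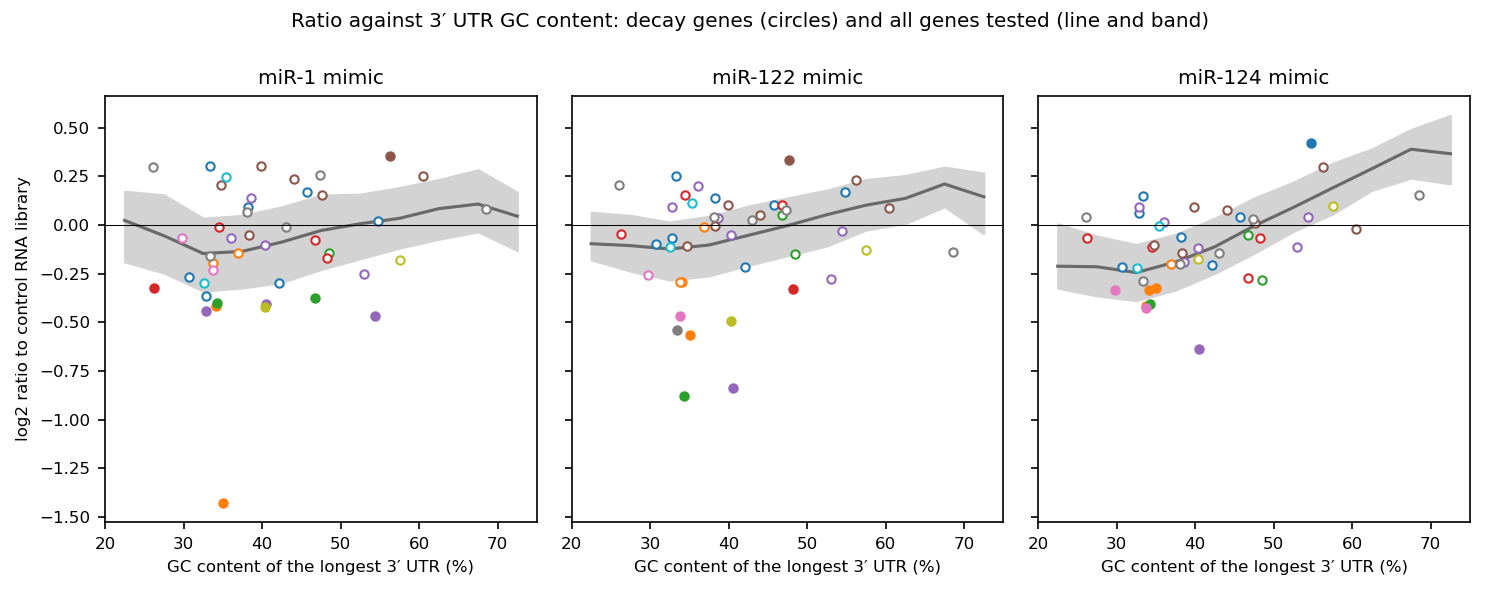
Log2 ratio to the control RNA library against the GC content of the longest 3′ UTR in percent, for the 44 genes (circles, coloured as in the plot of ratios, filled where called) and for all genes tested (line, median, and band, quartiles, in bins of 5% with at least 20 genes). With miR-124 the 7 genes called lower lie between 29.8% and 40.5% GC, where the line for all genes is low too.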

How the data were processed

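Total RNA of 293T cells was sequenced in 4 libraries, 1 for each condition. According to the submitters' processing notes, CASAVA 1.8 and HISAT2 2.0.0 were used with GRCh38. FPKM values per gene were deposited by the authors. What counted the reads, and with which annotation, is not given in the sources used here.

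The divisor of each library was the commonest value of 1 read, and a gene's reads were the whole numbers (tolerance 0.02) that its values gave in all libraries. Whole reads were found for 32308 of 32358 genes above 0 (99.8%) and summed to 100.7% or 100.8% of the divisors. 14 of the 44 genes gave whole reads with the annotated span. For the other 30 a fitted length was used, and their reads could be off by a whole factor. Intervals cover counting error only.

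With 1 library per condition no test was possible, and a call needed a ratio of 0.8 or lower, or an inverse ratio of 0.8 or lower, and a 95% interval on 1 side of 1, for genes with a mean of 50 reads and more than 0.004 FPKM in both libraries. Of the IDs, 57532 matched GENCODE release 44, from which 3′ UTRs were taken. All 180 listed sites equalled the GRCh38 genome at their coordinates. The seed match of miR-124 was read from a miRNA that shares its bases 2 to 8.

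The 44 genes and the lists were chosen with earlier results of these data known. Described in full were genes called in at least 1 comparison, the gene of each functional group with the largest ratio change, and the paralog pairs, and of 51 further decay genes the called ones were named, except for 1 that is not reported here. Steps were tested on simulated data with scipy 1.17.1 and numpy 2.4.6, run in Python 3.11.15 with pandas 2.3.3 and, for plots, matplotlib 3.10.9.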

Additional observations from a re-analysis of the deposited data

How the results depend on the processing

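The counts of genes called depended on the fold, the reference, and the adjustment. With a pseudocount of 1, which dampens genes with long introns and low FPKM, 1, 0, and 0 of the 44 genes were called lower in the miR-1, miR-122, and miR-124 libraries, respectively, with 0 higher for miR-122. With a pseudocount of 0.1 they were 3 with miR-1 and 2 with miR-124. Of all genes tested with miR-1, 16.08% were called lower without a pseudocount, 3.316% with a pseudocount of 1, and 11.12% with 0.1. Set against the other 2 mimic libraries 5, 2, and 0 were called lower, beside 10.9%, 3.5%, and 5.19% of all genes. There, 0 were called higher with miR-122 and 2 with miR-124, beside 5.61% and 7.17%. To that reference 6 ratios called lower changed sides of 1. They went to 1.16 for PAN3 and 1.255 for DCP1A with miR-1, and to 1.15 for CNOT6 with miR-122. With miR-124 they went to 1.52 for CNOT6, 1.02 for CNOT6L, and 1.16 for PAN3. All 6 belong to genes that were below the control RNA library in the reference libraries as well. Centred on the median of all genes, 4 were called higher with miR-1, beside 8.899% of all genes. With miR-124, centred in the same way, 4 were called lower and 2 higher. After the adjustment 3 were called lower with miR-1 and 3 with miR-124, beside 8.37% and 3.81% of all genes. Adjusted in this way, 0 were called higher with miR-124, beside 3.87%. At 1.5-fold 1, 2, and 1 were called lower and 0, 0, and 0 higher. For these 1.5-fold counts the share of all genes is not given here. It is also not given for miR-122 and miR-124 with a pseudocount, nor for miR-124 when centred. Counts without that share are not read as results about the 44 genes. The causes of the moves between settings were not tested. The other counts were within 1.5 times those reported. The medians moved by less than the counting error of a single gene, which is a wide bound for a median of 44 genes. Those of miR-1 and miR-122 changed sign and were above 0 (0.03 and 0.03) against the other mimics. Dropping the minimum of reads changed no count and could not, since all 44 genes had passed it. Ratios of single genes left their interval in 24 of 132 cases after the adjustment, in 48 against the other mimics, the 6 above included, in 17 with a pseudocount of 1, and in 1 with 0.1. CNOT6 with miR-1 went from 0.372 to 0.6985 with a pseudocount of 1. No paired analysis was possible because every condition was sequenced once, and for the same reason no replicate could be left out. A gene with about 100 reads in each library, such as DCP1B, has an interval from 0.552 to 0.985, and CNOT4 with miR-1, at 112 and 124 reads, was not called at a ratio of 0.776.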
